A study of Mus musculus with 9 samples.

Results

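Heat shock proteins and their cochaperones were followed in the colon of wild-type mice as a set of 78 protein-coding genes, chosen by symbol: the Hspa, Hspb, Hspd, Hspe, Hsph and Hsp90 genes, the DNAJA, DNAJB and DNAJC genes, Bag1 to Bag6, Hspbp1 and Hsf1 to Hsf5. The chaperones of the endoplasmic reticulum Hspa5, Hsp90b1, Dnajb9, Dnajb11, Dnajc3 and Dnajc10 were left out by the same rule, as were Hspg2 and Hspbap1. The set is mainly cytosolic, but it also holds the mitochondrial chaperones Hspa9, Hspd1, Hspe1 and Dnaja3 and several membrane-bound DNAJ proteins such as Dnajc1. The files list 22262 genes in all, 72 of them members, and 6 members (Dnajb8, Dnajb13, Dnajc5b, Dnajc5g, Hspb3 and Hspb9) had no count in any of the 9 libraries. A further 6 members (Hspa1l, Dnajb7, Dnajc6, Hsf3, Hsf4 and Hsf5) had at most 3 counts in every library, the floor used here for a detectable level. The filter on low counts kept 68 members for testing.

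All mice were female wild-type C57BL/6N animals aged 12 months, and a piece of the upper colon was taken from each. The 4 WT_SE mice (numbers 1, 2, 3 and 5) lived in the standard environment of ordinary cages, and the 5 WT_EE mice (numbers 1 to 5) lived from weaning in an enriched one, called enhanced in the sample labels, with a larger cage, more companions, toys and running wheels. None of these mice carried a transgene. The paper describes several females per cage in both environments, and the labels used here do not say which mice shared a cage. A difference between environments therefore cannot be told apart from a difference between cages. The p-values treat each mouse as independent and measure only the spread between these mice.

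Heat shock proteins hold other proteins in a foldable state. HSP70 proteins bind and release unfolded stretches in cycles that DNAJ proteins start and that nucleotide exchange factors (the BAG proteins, Hspbp1 and the HSP110 proteins) end. HSP90 finishes the folding of kinases and steroid receptors, HSP60 with HSP10 folds proteins inside mitochondria, and small heat shock proteins bind unfolding proteins without ATP and are abundant in muscle. The transcription factor HSF1 induces the stress-responsive members by binding repeats of the unit TTC and its complement GAA, while the constitutive members are made in unstressed cells.

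Promoter sequence is shown for the inducible HSP70 pair and the small heat shock protein Hspb1, all called higher below, so that the 2 HSP70 copies can be compared. Each line gives the 250 bases before the annotated start from RefSeq on GRCm38.p6, 5′ to 3′ on the gene's strand, with the head-to-head repeat GAANNTTC and the tail-to-tail repeat TTCNNGAA in capitals. The windows are chr17:34972157-34972406 (minus strand) for Hspa1a, chr17:34959239-34959488 (minus strand) for Hspa1b and chr5:135887669-135887918 (plus strand) for Hspb1.
Hspa1a: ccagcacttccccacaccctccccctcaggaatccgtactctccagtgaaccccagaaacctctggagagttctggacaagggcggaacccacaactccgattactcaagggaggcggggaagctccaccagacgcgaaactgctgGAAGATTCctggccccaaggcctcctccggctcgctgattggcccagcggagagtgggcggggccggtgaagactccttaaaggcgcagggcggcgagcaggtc
Hspa1b: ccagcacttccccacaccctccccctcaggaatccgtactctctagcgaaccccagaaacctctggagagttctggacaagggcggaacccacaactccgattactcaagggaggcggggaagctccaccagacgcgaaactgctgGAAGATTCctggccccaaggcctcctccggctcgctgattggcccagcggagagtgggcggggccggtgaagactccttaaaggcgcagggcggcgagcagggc
Hspb1: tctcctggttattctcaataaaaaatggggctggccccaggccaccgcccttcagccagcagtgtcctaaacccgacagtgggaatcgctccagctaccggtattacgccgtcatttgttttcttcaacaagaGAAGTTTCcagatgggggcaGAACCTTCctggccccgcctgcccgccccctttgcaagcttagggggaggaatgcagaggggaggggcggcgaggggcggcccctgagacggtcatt
The Hspa1a and Hspa1b windows differed at 3 of 250 positions and each held 1 GAANNTTC site, in a copy of the same surrounding sequence. The Hspb1 window held 2 such sites.

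The longer repeat of 3 units, TTCNNGAANNTTC on either strand, was found in 0.603% of the 32851 RefSeq windows of 300 bases (250 before and 50 after a start) and in the windows of 4 of the 53 tested members with a window: Dnajb6, Hspd1, Hspe1 and Hsph1. This repeat contains both shorter ones, so the counts overlap. The stretches that hold it are shown with the repeat in capitals, since none of these 4 genes passed the test between environments. They lie at chr5:29735848-29735868 for Dnajb6, chr5:149636284-149636304 for Hsph1 and chr1:55088055-55088080 for Hspd1 and Hspe1, which share it from opposite strands.
Dnajb6: ccgaGAATCTTCCGGAAcgct
Hsph1: cagaTTCTGGAAAGTTCtcct
Hspd1: ggccTTCCGGAAGGTTCTAGAAcgga
Hspe1: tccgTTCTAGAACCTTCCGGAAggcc
The GAANNTTC repeat was present in 7.86% of all windows, in 9.04% of genes and in 13 of the 53 members. Of the 11 members with a window that were higher in WT_EE, 6 held it (Bag3, Hspa1a, Hspa1b, Hspb1, Hspb6 and Hspb8). This repeat was in 0 of the 3 lower members. TTCNNGAA was present in 8.52% of windows, in 9.60% of genes and in 5 of the 53 members. The 3-unit repeat was in 0.662% of genes. Both TTCNNGAA and the 3-unit repeat were in 0 of the 11 higher and 0 of the 3 lower members. A match describes these letters only, and a window without a match says nothing of binding elsewhere.

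Levels below are normalized CPM, the counts scaled to a common library total after TMM normalization, and a log2 fold change is WT_EE minus WT_SE. As the libraries were read at the 3′ end of each transcript, a level does not grow with transcript length. A gene is called where the unadjusted p of edgeR's quasi-likelihood test was under 0.05. Library totals ranged from 299062 to 383401 in WT_SE and from 295535 to 454043 in WT_EE, so 3 counts equal between 6.48 and 10.5 normalized CPM. The 2 libraries of WT_SE mice 1 and 3 have names ending in L3 and the other 7 end in L2, and no WT_EE library ends in L3. Slc10a2, the bile acid transporter known from the ileum, ranged from 43.7 to 372 CPM in WT_SE and from 10.5 to 256 CPM in WT_EE, so pieces differed widely within each group.

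Transcripts of 3 HSP70 genes, 4 small heat shock proteins, 3 DNAJ genes and 2 BAG genes were higher in WT_EE, and 3 DNAJC genes were lower, while HSP90, HSP60, HSP110 and DNAJA genes did not pass the test. Of the 68 tested members, 15 were called (22.1%), against 7.65% of all 17441 genes tested. The 12 higher members of 68 were a larger share than the 4.31% of all genes called higher. The 3 lower members of 68 were near the 3.34% of all genes called lower. The 2 groups of mice did not overlap in CPM for 4 members (Hspa1b, Hspb7 and Dnajb2 higher, Dnajc7 lower), against 2.58% of all genes. After Benjamini-Hochberg adjustment over all genes, edgeR called 0 members and 0.0401% of all genes, and the smallest adjusted p of a member was 0.0527, for Hspa1b. The median log2 fold change was 0.09 over the tested members and 0.01 over all genes. Above 0 were 38 of 68 members and 8920 of all 17441 genes. With upper quartile scaling, the 12 higher and 3 lower calls became 11 and 5, with 7.84% of all genes called.

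**Figure D1:**
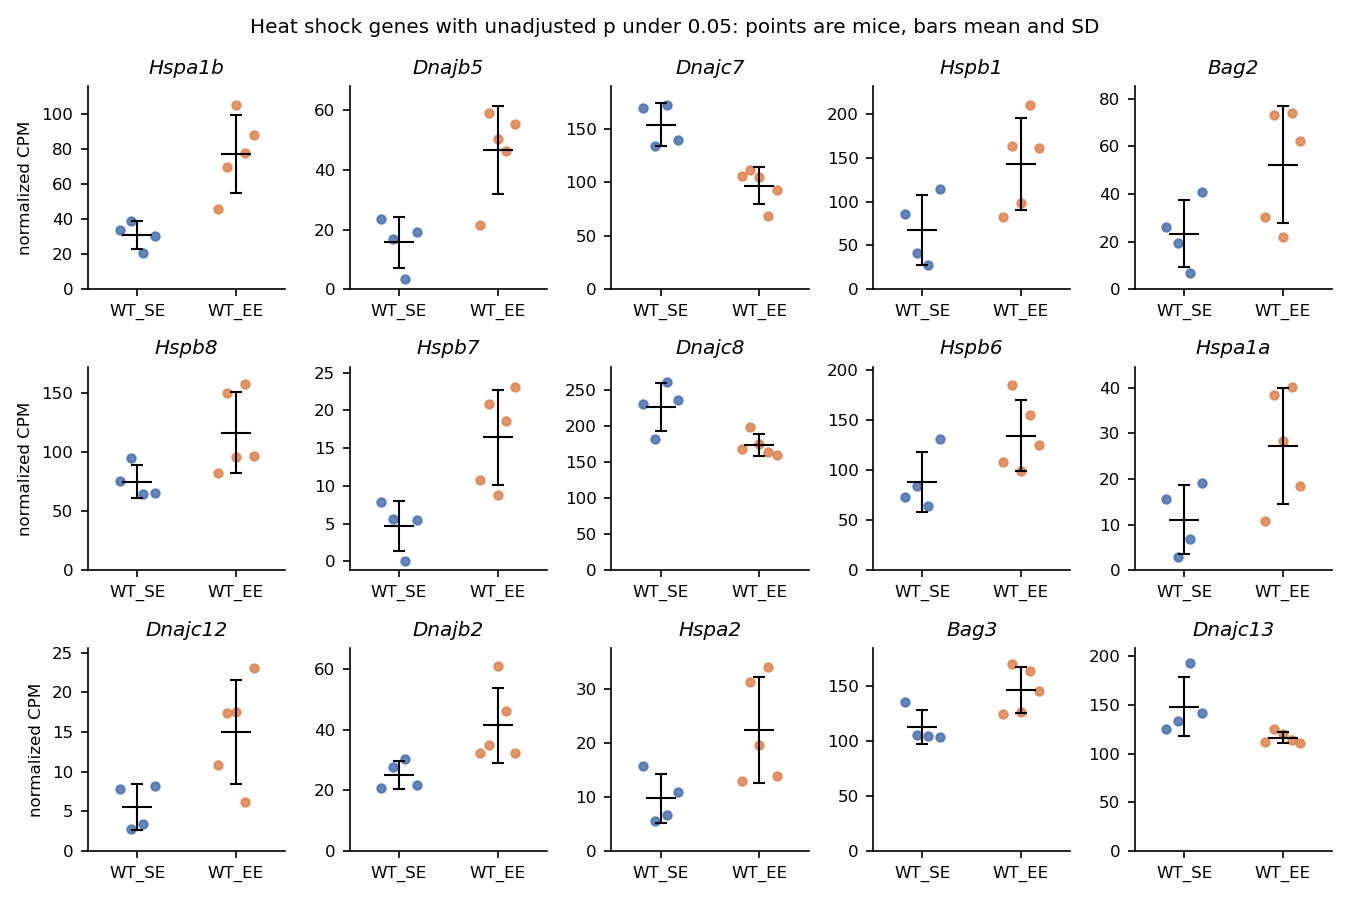
Normalized CPM of the 15 members with an unadjusted p under 0.05, in order of p, with 1 point per mouse (4 WT_SE, 5 WT_EE) and bars for the mean and SD. Hspa1b reaches from 20.3 to 39.0 CPM in WT_SE and from 45.3 to 105 in WT_EE, while Dnajc7 is at least 134 CPM in every WT_SE mouse and at or below 112 in every WT_EE mouse.

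Of 10 tested HSP70 genes, 3 rose, led by the inducible Hspa1b, and the abundant constitutive Hspa8 and Hspa9 were not called. Hspa1b, the stress-inducible cytosolic HSP70, measured 33.9, 39.0, 20.3 and 30.1 CPM in WT_SE mice 1, 2, 3 and 5 and 45.3, 69.7, 105, 77.3 and 87.9 CPM in WT_EE mice 1 to 5. All WT_EE mice lay above all WT_SE mice, with WT_EE mouse 1 nearest to them. The means were 30.8 ± 7.91 (SD, n = 4) and 77.0 ± 22.1 CPM (SD, n = 5), a log2 fold change of 1.30 with an SE of 0.27 (edgeR p = 2.9e-05, adjusted p = 0.0527, exact permutation p = 0.0159). Its neighbour and near copy Hspa1a was lower in level and called with more spread. It had 6, 1, 2 and 7 counts in WT_SE and 5, 11, 13, 13 and 8 in WT_EE, or 2.78 to 19.1 and 10.8 to 40.2 CPM, so that the groups overlapped. Its log2 fold change was 1.17 with an SE of 0.47 (edgeR p = 0.0161, adjusted p = 0.481, exact permutation p = 0.0714), and without WT_SE mouse 2 it was 0.85 and not called. Hspa2, an HSP70 best known from the testis, had 6, 2, 2 and 4 counts in WT_SE and 6, 9, 9, 11 and 6 in WT_EE, again overlapping in CPM. Its log2 fold change was 1.08 with an SE of 0.48 (edgeR p = 0.0276, adjusted p = 0.555, exact permutation p = 0.0556). It was not called without WT_SE mouse 2 (0.88) or 3 (0.97) or WT_EE mouse 2 (0.94) or 4 (0.89).

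Constitutive Hspa8, the housekeeping cytosolic HSP70, lay between 203 and 258 CPM in WT_SE and between 167 and 246 CPM in WT_EE. The difference was -0.11 on the log2 scale, with a 95% interval from -0.40 to 0.17 (edgeR p = 0.427, exact permutation p = 0.341). Mitochondrial Hspa9 lay between 238 and 281 CPM in WT_SE and between 227 and 279 CPM in WT_EE, a difference of -0.05 with an interval from -0.32 to 0.23. Within the cytosolic HSP70 transcripts Hspa1a, Hspa1b, Hspa2 and Hspa8, Hspa1a and Hspa1b together made up 15.3, 16.7, 10.3 and 16.5% in WT_SE and 17.8, 35.2, 36.3, 31.9 and 31.1% in WT_EE. The lowest WT_EE share, of mouse 1, was just above the highest WT_SE share, of mouse 2.

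**Figure D2:**
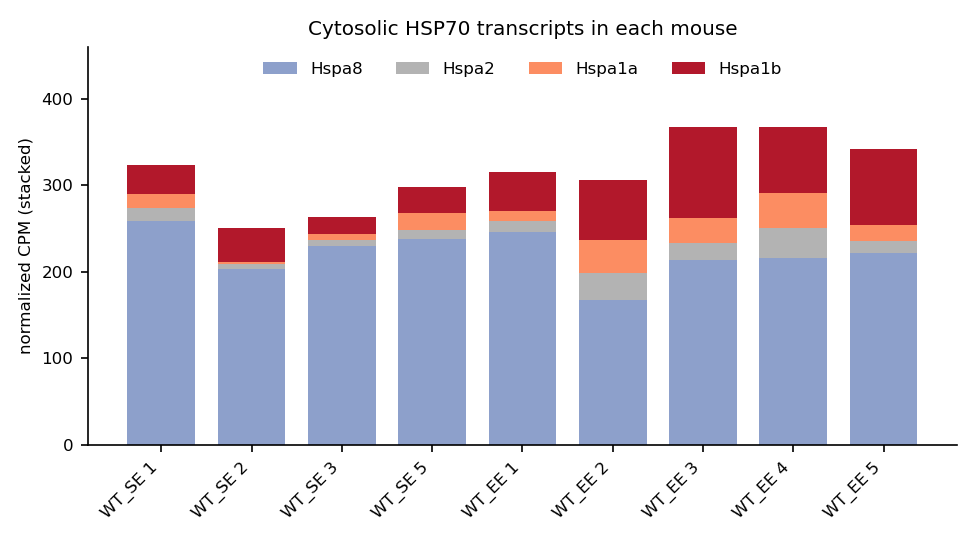
Stacked normalized CPM of Hspa8, Hspa2, Hspa1a and Hspa1b in each of the 9 mice. Hspa8 is the largest part of every bar, and the Hspa1a and Hspa1b parts together take 10.3 to 16.7% of the bar in WT_SE and 17.8 to 36.3% in WT_EE.

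Hspa1a and Hspa1b lie 9951 bases apart and their whole transcripts match at 85.5% of aligned positions. Over the last 300 bases, which the 3′ reads cover, they match at 187 of 354 alignment columns (52.8%). Reads from the shared part can still be assigned to either gene, so the split between the 2 is less certain than their sum. Across the 9 mice the log2 level of Hspa1b and that of Hspa1a had a Pearson r of 0.63 (exact permutation p = 0.0663, adjusted over 13 relations p = 0.108) and a Spearman rho of 0.57 (permutation p = 0.121, adjusted p = 0.196). Leaving out the 2 mice farthest from the median of Hspa1a gave r = 0.57, and the 7 libraries with ending L2 gave r = 0.58. Hspa1b had r of 0.47 with Dnajb1, 0.71 with Hsph1 and 0.35 with Hsp90aa1 (permutation p = 0.198, 0.0334 and 0.353, adjusted p = 0.257, 0.0620 and 0.382). Without the 2 farthest mice r with Hsph1 was 0.32. In all of these relations of Hspa1b, r and its p over all mice include any difference between the groups.

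Immediate early genes, which respond within minutes to many stimuli and to tissue handling, moved with Hspa1b. All 16 listed genes had a positive log2 fold change, down to 0.02 for Atf3, against 8920 of all 17441 genes. Of the 16, 4 (Fos, Fosb, Nr4a1 and Nr4a2) were called, against 4.31% of all genes called higher. Nr4a2 had an adjusted edgeR p of 0.0249. The summed level of the 16 genes was 769 to 1036 CPM in WT_SE and 978 to 1251 CPM in WT_EE. Across mice, the mean of this list and Hspa1b had r = 0.83 (exact permutation p = 0.00851, adjusted p = 0.0320) and rho = 0.72 (permutation p = 0.0369, adjusted p = 0.120). Without the 2 farthest mice r was 0.95, and within the L2 libraries it was 0.77. Both measures differ between the groups, so r over all mice includes the group difference, and the part of the immediate early response in the level of Hspa1b was not tested. The cold-inducible RNA-binding genes Cirbp and Rbm3 were not called, and for each the groups overlapped. Cirbp was 54.7 to 91.3 CPM in WT_SE and 45.3 to 65.6 CPM in WT_EE. Rbm3 was 20.3 to 32.8 CPM in WT_SE and 6.19 to 21.6 CPM in WT_EE. Only their sums, 87.5 to 112 CPM in WT_SE and 62.5 to 83.1 CPM in WT_EE, did not overlap. How often sums of other gene pairs separate was not tested.

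HSP110, HSP90 and the HSF genes gave no call. Hsph1, a nucleotide exchange factor that is itself heat-inducible, measured 80.9, 69.6, 47.3 and 73.8 CPM in WT_SE and 64.8, 55.8, 116, 86.6 and 106 CPM in WT_EE. WT_EE mice 1 and 2 lay within the WT_SE range and the other 3 above it, and the difference was 0.34 with a 95% interval from -0.12 to 0.81 (edgeR p = 0.139, exact permutation p = 0.262). Hspa4, a constitutive HSP110 protein, differed by -0.10 (interval -0.40 to 0.19). Hsp90ab1, the constitutive cytosolic HSP90, was the most abundant member at 531 ± 91.4 CPM in WT_SE (SD, n = 4) and 604 ± 82.8 CPM in WT_EE (SD, n = 5). Its difference was 0.18 (interval -0.10 to 0.46, exact permutation p = 0.238), and that of the inducible Hsp90aa1 was 0.16 (interval -0.14 to 0.46, exact permutation p = 0.349).

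Values of these 2 HSP90 genes, the only members with a mean above 100 counts, also bear on depth. Over genes with a mean of 100 to 300 counts, log summed counts rose by 0.473 per unit of log library total, where proportional counting gives 1, and in each library the highest gene had only 1177 to 1393 counts. With a covariate for the library total, chosen after seeing the data, Hsp90ab1 and Hsp90aa1 each had a log2 fold change of 0.25 and Hspe1 one of -0.40. All 3 were then called, with edgeR adjusted p of 0.398, 0.472 and 0.502. This fit called 26.5% of tested members and 9.84% of all genes. Of the 15 members called without the covariate, 13 stayed called, and Dnajc12 (1.24) and Dnajc13 (-0.25) did not. Hsf1 was counted 3 to 17 times a library and differed by 0.21 (interval -0.52 to 0.95), and Hsf2 differed by 0.26 (interval -0.41 to 0.93) but by 0.75, then called, without WT_SE mouse 2.

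**Figure D3:**
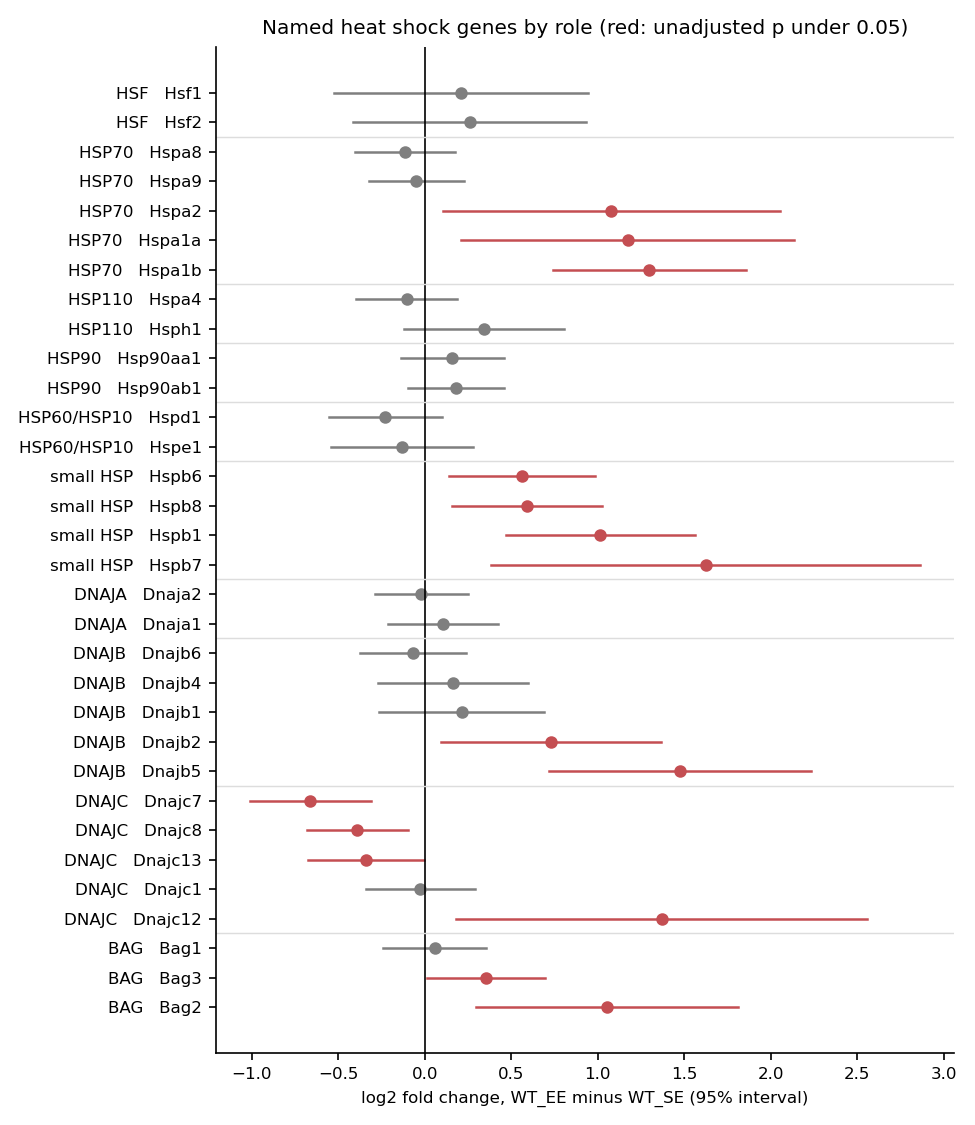
Log2 fold changes with 95% intervals for the 32 named members, grouped by role, with an unadjusted p under 0.05 in red. The named small heat shock proteins Hspb1, Hspb6, Hspb7 and Hspb8, all called, lie to the right of 0. Hspa1a, Hspa1b and Hspa2 stand apart from Hspa8 and Hspa9, and Dnajc7, Dnajc8 and Dnajc13 lie to the left.

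Mitochondrial HSP60 and HSP10, encoded by Hspd1 and Hspe1 head to head on opposite strands, were not called. Hspd1 lay between 131 and 237 CPM in WT_SE and between 125 and 190 CPM in WT_EE, a difference of -0.23 (interval -0.55 to 0.10, exact permutation p = 0.222), which was -0.36 and called without WT_SE mouse 2. Hspe1 lay between 83.5 and 164 CPM in WT_SE and between 73.2 and 173 CPM in WT_EE, a difference of -0.13 (interval -0.54 to 0.28).

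Small heat shock proteins, grouped by symbol, gave the largest share of calls: of 6 tested, 4 rose and 0 fell. Hspb2 (log2 fold change 1.48) and Hspb11 (-0.17) were not called. Hspb1, the widely expressed HSP25, measured 86.1, 41.8, 27.1 and 115 CPM in WT_SE and 82.0, 164, 98.4, 210 and 162 CPM in WT_EE. The groups overlapped through WT_SE mice 1 and 5 and WT_EE mice 1 and 3. The means were 67.4 ± 40.3 (SD, n = 4) and 143 ± 52.5 CPM (SD, n = 5), a log2 fold change of 1.02 with an SE of 0.27 (edgeR p = 0.000538, adjusted p = 0.174, exact permutation p = 0.0714). Hspb6, a small heat shock protein of muscle, measured 73.1, 83.5, 64.3 and 131 CPM in WT_SE and 108, 185, 98.4, 155 and 125 CPM in WT_EE. Its log2 fold change was 0.56 with an SE of 0.21 (edgeR p = 0.0105, adjusted p = 0.432, exact permutation p = 0.0794), and only WT_SE mouse 5 reached into the WT_EE range. Hspb8, which works with Bag3 in the removal of damaged muscle proteins, lay between 64.3 and 94.7 CPM in WT_SE and between 82.0 and 158 CPM in WT_EE. Its log2 fold change was 0.59 with an SE of 0.21 (edgeR p = 0.00883, adjusted p = 0.416, exact permutation p = 0.0556). Hspb7, known from heart and muscle, was near the floor, at 3, 2, 0 and 2 counts in WT_SE and 5, 6, 4, 6 and 10 counts in WT_EE. The fitted log2 fold change was 1.62 with an SE of 0.61 (edgeR adjusted p = 0.417). The groups did not overlap, and the summed 7 and 31 counts gave a ratio of rates of 3.19 with a 95% exact counting interval from 1.38 to 8.57, which covers counting error only.

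Of 10 listed smooth muscle markers, 4 (Acta2, Des, Smtn and Lmod1) were called higher, against 4.31% of all genes. Of the 10, 0 passed edgeR's adjustment, and the groups overlapped for each. All 10 had a positive log2 fold change, down to 0.04 for Myh11, against 8920 of all 17441 genes. Their sum was 2498 to 3212 CPM in WT_SE and 2570 to 4521 CPM in WT_EE. WT_EE mice 2 and 4 had the highest sums, 4521 and 4416 CPM, and were also highest for Hspb6 and Hspb8. These 2 mice also had the highest sums of the 10 epithelial markers (3876 and 4023 CPM) and of 6 fibroblast markers (1408 and 1271 CPM). Their library totals, 295535 and 336967, were the lowest of WT_EE. Counts of abundant genes rose less than in proportion to the total. The part of depth in these sums, and in the relations with marker lists below, was not tested. In whole tissue, more cells of a type and more RNA per cell cannot be told apart. Of 10 epithelial markers, 1 was called higher, with sums of 2929 to 3493 CPM in WT_SE and 3005 to 4023 CPM in WT_EE, and the defining markers of both tissues were present in all mice. The mean of the muscle list and Hspb1 had r = 0.79 across mice (exact permutation p = 0.0149, adjusted p = 0.0388) and rho = 0.90 (permutation p = 0.00203, adjusted p = 0.0264). For Hspb6, r was 0.85 (permutation p = 0.00308, adjusted p = 0.0320) and rho was 0.87 (permutation p = 0.00451, adjusted p = 0.0293). Without the 2 farthest mice, WT_EE 2 and 4, r was 0.77 for Hspb1 and 0.65 for Hspb6, and within the L2 libraries it was 0.83 and 0.96. For Hspb8 and Bag3, r was 0.77 and 0.80 over all mice (permutation p = 0.0211 and 0.00985, adjusted p = 0.0458 and 0.0320) and rho was 0.52 and 0.62 (permutation p = 0.162 and 0.0857), but r was -0.19 and 0.34 without those 2 mice, so these relations rest on them. For Hspb7, r was 0.60 (permutation p = 0.0933). In these relations and those with epithelial markers, r and its p over all mice include any difference between the groups. Of the relations with epithelial markers, Hsp90ab1 had r = 0.83 (permutation p = 0.00600, adjusted p = 0.0320), rho = 0.77 (permutation p = 0.0214, adjusted p = 0.0927) and r = 0.59 without the same 2 mice, while Hspa8 and Hspd1 had r of -0.39 and -0.06.

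**Figure D4:**
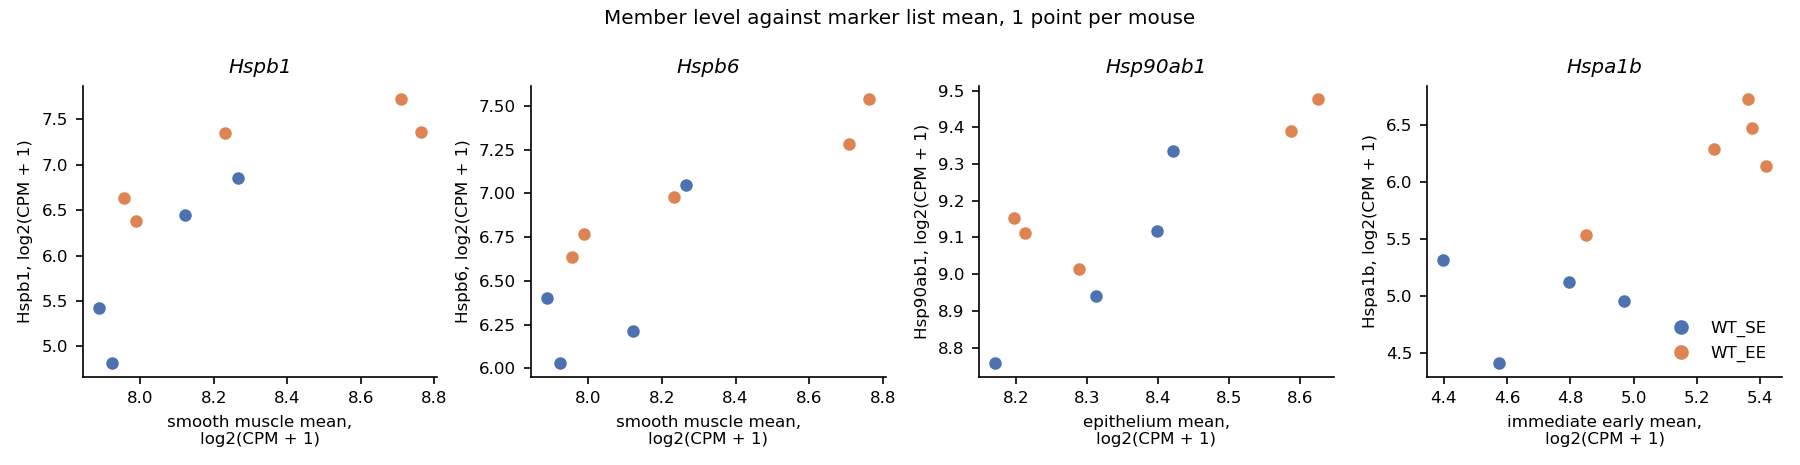
Log2(CPM + 1) of Hspb1, Hspb6, Hsp90ab1 and Hspa1b in each mouse against the mean log2(CPM + 1) of a marker list, with WT_SE in blue and WT_EE in orange. Hspb1 and Hspb6 rise with the smooth muscle mean, and the 2 rightmost mice in both panels are WT_EE 2 and 4.

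With the smooth muscle mean as a covariate, the log2 fold change of Hspb1 was 0.60 and that of Hspb7 was 1.33, both still called, with edgeR adjusted p of 0.526 and 0.643. Calls were lost for Hspb6 (0.28), Hspb8 (0.35), Bag2 (0.51), Bag3 (0.23), Hspa1a (0.74), Hspa2 (0.67) and Dnajc13 (-0.33). Hspa1b had 1.32 in this fit (edgeR adjusted p = 0.0869). With Slc10a2 as the covariate, these 7 genes and Hspb7 (1.24) were not called. Hspa1b then had a log2 fold change of 1.28 (edgeR adjusted p = 0.0670). The muscle fit called 11.8% of tested members against 7.59% of all genes, and the Slc10a2 fit 10.3% against 6.66%.

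**Figure D5:**
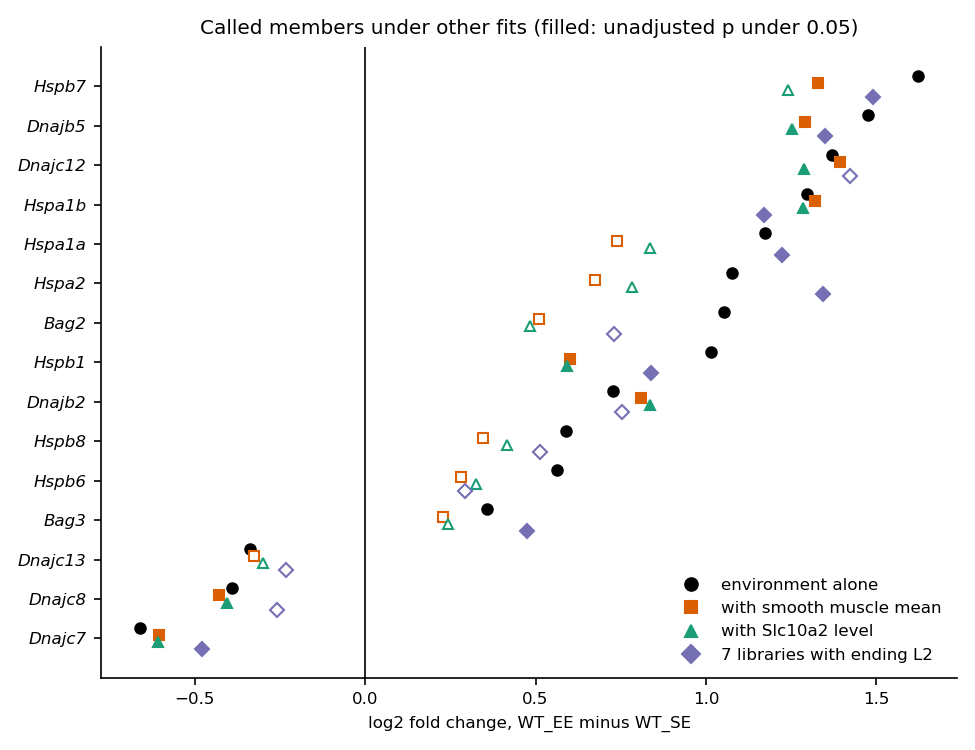
Log2 fold changes of the 15 called members with the environment alone, with the smooth muscle mean or Slc10a2 as a covariate, and in the 7 libraries with ending L2; filled symbols have an unadjusted p under 0.05. Hspa1b, Dnajb5, Hspb1 and Dnajc7 are filled in all 4 fits, and Hspb6, Hspb8, Bag2 and Dnajc13 only in the first.

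Among the J-domain proteins, which bring unfolded proteins to HSP70, calls were found in the DNAJB and DNAJC classes. Of 4 DNAJA genes 0 were called, of 8 tested DNAJB genes 2 rose, and of 24 tested DNAJC genes 1 rose and 3 fell. Dnajb5 had 9, 6, 1 and 7 counts in WT_SE and 10, 17, 23, 15 and 24 in WT_EE, equal to 23.5, 16.7, 3.38 and 19.1 CPM and 21.6, 59.3, 50.3, 46.4 and 55.5 CPM. Only WT_EE mouse 1 fell within the WT_SE range. The log2 fold change was 1.48 with an SE of 0.37 (edgeR p = 0.000282, adjusted p = 0.130, exact permutation p = 0.0238). Dnajb2, which carries ubiquitin-binding motifs, measured 20.9 to 30.4 CPM in WT_SE and 32.4 to 61.2 CPM in WT_EE without overlap, with a log2 fold change of 0.73 and an SE of 0.31 (edgeR p = 0.0243, adjusted p = 0.539, exact permutation p = 0.0238). It was not called without WT_SE mouse 1 (0.65) or 5 (0.67) or WT_EE mouse 3 (0.53). Dnajb1, the main heat-inducible DNAJ protein, measured 78.3, 41.8, 50.7 and 87.5 CPM in WT_SE and 58.3, 59.3, 85.2, 80.4 and 92.6 CPM in WT_EE, and its difference of 0.21 had an interval from -0.26 to 0.69 (exact permutation p = 0.413). Dnaja1, Dnaja2, Dnajb4 and Dnajb6 had differences of 0.11, -0.02, 0.16 and -0.07, and none was called.

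Dnajc7, a cochaperone with tetratricopeptide repeats that binds both HSP70 and HSP90, fell. It measured 170, 134, 172 and 139 CPM in WT_SE and 106, 112, 105, 68.0 and 92.6 CPM in WT_EE. Every WT_EE mouse lay below every WT_SE mouse. The means were 154 ± 20.1 (SD, n = 4) and 96.6 ± 17.4 CPM (SD, n = 5), a log2 fold change of -0.66 with an SE of 0.17 (edgeR p = 0.000465, adjusted p = 0.166, exact permutation p = 0.00794, the smallest these 9 mice allow). Its gene overlaps Cnp and Nkiras2 on the other strand, and whether counting used strand is not given in the sources used here, so reads of these genes may be mixed with its own. Dnajc8, linked to splicing, lay between 181 and 260 CPM in WT_SE and between 160 and 199 CPM in WT_EE, with a log2 fold change of -0.39 and an SE of 0.14 (edgeR p = 0.0104, adjusted p = 0.432, exact permutation p = 0.0238), and -0.31, not called, without WT_SE mouse 3. Dnajc13, a J-domain protein of endosomes, had a log2 fold change of -0.34 (edgeR p = 0.0471, adjusted p = 0.641, exact permutation p = 0.0159) and overlaps a pseudogene on the same strand. Leaving out WT_SE mouse 3 gave -0.19, and the call was also lost without WT_SE mouse 5 (-0.35) or WT_EE mouse 1 (-0.32), 3 (-0.35), 4 (-0.33) or 5 (-0.31). Dnajc12, a cochaperone of the aromatic amino acid hydroxylases, had 3, 1, 1 and 3 counts in WT_SE and 5, 5, 8, 2 and 10 in WT_EE, summed 8 and 30, with a counting interval of the ratio of rates from 1.21 to 6.81. Its log2 fold change was 1.37 with an SE of 0.59 (edgeR adjusted p = 0.516), and it was not called without WT_SE mouse 2 (1.15) or WT_EE mouse 5 (1.16). Dnajc1 was the most abundant DNAJC gene and differed by -0.02.

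The nucleotide exchange factors Bag1 to Bag6 and Hspbp1 gave 2 calls of 7, both higher. Bag2, which inhibits the ubiquitin ligase CHIP, measured 26.1, 19.5, 6.76 and 41.0 CPM in WT_SE and 30.2, 73.2, 21.9, 74.2 and 62.5 CPM in WT_EE, with a log2 fold change of 1.05 and an SE of 0.37 (edgeR p = 0.00700, adjusted p = 0.394, exact permutation p = 0.0873). WT_EE mice 2, 4 and 5 stood above the rest and mice 1 and 3 lay within the WT_SE range. Bag3, the HSF1-induced partner of Hspb8, measured 136, 106, 105 and 104 CPM in WT_SE and 125, 171, 127, 164 and 146 CPM in WT_EE, with a log2 fold change of 0.36 and an SE of 0.17 (edgeR p = 0.0399, adjusted p = 0.616, exact permutation p = 0.0476). Its call was lost without any 1 of WT_SE mice 2, 3 and 5 (0.33, 0.33 and 0.32) or WT_EE mice 2, 4 and 5 (0.30, 0.32 and 0.36). Bag1 differed by 0.06 (interval -0.24 to 0.36).

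Libraries with ending L2 alone, 2 WT_SE and 5 WT_EE, gave 8 called members, against 3.98% of genes. There the log2 fold change was 1.17 for Hspa1b, 1.35 for Dnajb5, 0.84 for Hspb1 and -0.48 for Dnajc7, all 4 called, with edgeR adjusted p between 0.791 and 0.994. Not called were Dnajb2 (0.75), Dnajc12 (1.42) and Hspb8 (0.51), whose values stayed near those over all mice, and Bag2 (0.73), Hspb6 (0.29), Dnajc8 (-0.26) and Dnajc13 (-0.23), whose values were smaller. With 2 WT_SE mice left, a lost call does not show that a difference depended on the ending.

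Partner genes of these chaperones gave 3 calls among 46 tested genes (6.52%), near the share of all genes. They comprise HSP90 and HSP70 partners, the cytosolic chaperonin, prefoldin and other HSF1 targets. Cryab, a small heat shock protein of muscle that the symbol rule misses, measured 28.7, 22.3, 13.5 and 51.9 CPM in WT_SE and 47.5, 101, 48.1, 64.9 and 53.2 CPM in WT_EE. Its log2 fold change was 1.03 with an SE of 0.31 (edgeR adjusted p = 0.248), with WT_SE mouse 5 above WT_EE mice 1 and 3. Ptges3, the HSP90 cochaperone p23, fell from 186 ± 12.8 (SD, n = 4) to 149 ± 7.72 CPM (SD, n = 5) without overlap (log2 fold change -0.31, edgeR adjusted p = 0.594). Pfdn2, a prefoldin subunit, had a log2 fold change of -0.47 (edgeR adjusted p = 0.650). None of the 8 chaperonin genes was called.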

How the data were processed

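RNA from 9 colon pieces was sequenced as 3′ libraries with unique molecular identifiers. The authors aligned reads with STAR and deposited raw counts of identifiers per gene and mouse. The submitters' processing notes name fastp 0.20.0, STAR 2.7.0f, featureCounts 1.6.0 of Subread, UMI-tools and the build GRCm38.p6. Genes absent from a library's list were taken as 0 counts. Symbols and positions for 22256 of the 22262 genes came from GENCODE release 21 (GRCm38), and promoter sequence from RefSeq (GRCm38.p6).

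The filter asked for 4 CPM or more in 1 or more libraries, which left 17441 genes. Counts were compared with edgeR 4.0.16 in R 4.3.3 (TMM, quasi-likelihood F test, environment as the only term), with Benjamini-Hochberg adjustment over all genes. The common biological coefficient of variation was 15.1%. For single genes, an exact two-sided permutation test ran over all 126 splits of the mice, and correlations on log2(CPM + 1) by all 362880 pairings, in python 3.11.15 with scipy 1.17.1. The steps were tested on simulated data. The limit of 0.05 follows the paper, and this filter is 1 reading of its wording. Under the stricter reading, 4 CPM or more in every library, 10596 genes were tested and 11 members called, 8 of them higher. The 11 were 20.4% of tested members, against 9.14% of all genes.

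The members, gene lists and tests were chosen with earlier results of these data known. Named genes are 25 members fixed by name, all called members, members whose groups did not overlap, the most abundant member of each role and called partner genes. Alternatives were other filters, normalizations (RLE, upper quartile, none), tests (DESeq2 1.42.0, limma-voom with limma 3.58.1, likelihood ratio, exact), covariates, the mouse number as a block and each mouse left out. The newer quasi-likelihood form, TMMwsp, and the adipocyte mean and library total as covariates were added after seeing the data. Intervals of log2 fold changes come from the edgeR fit and include the spread between mice, while floors and intervals of ratios of rates cover counting error only.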

Additional observations from a re-analysis of the deposited data

Results flagged for a closer look

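Among 64 groups looked at (32 named members in both environments), 1 held a mouse far from the others, where chance gives about 3.2. Bag3 in WT_SE mouse 1 stood at 136 CPM with 52 counts, while the remaining WT_SE mice had 104 to 106 CPM. This library is 1 of the 2 with ending L3.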

How the results depend on the processing

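The calls of Hspa1b, Hspb1, Dnajb5 and Dnajc7 held in every alternative that tested them, and no called member changed sign. Of 15 called members, 12 were higher and 3 lower. The count of called members was 7 with a covariate for the library-name ending (6 higher, 1 lower, 0 partner genes), 8 with the smooth muscle mean (6 higher), 7 with Slc10a2 (5 higher), 8 with only L2 libraries (7 higher, 1 lower, 0 partner genes) and 7 at an unadjusted p under 0.01 (6 higher, 1 lower, 1 partner gene). In that order, 10.3, 11.8, 10.3, 11.8 and 10.3% of tested members were called, against 3.94, 7.59, 6.66, 3.98 and 2.35% of all genes. Lower members numbered 5 with upper quartile scaling and 5 with the library total as a covariate, which was chosen after seeing the data. These fits called 7.84 and 9.84% of all genes. At first, 15 members had an unadjusted p under 0.05 and 0 passed adjustment. Members passing adjustment numbered 4 without a filter, 2 with the likelihood ratio test, 2 with the exact test and 1 with TMMwsp. The share of all genes passing adjustment was set beside the count of members in the first fit only. The adjusted counts of the other fits, also those with the mouse number as a block or a mouse left out, are therefore not results about the members. DESeq2 called 1 partner gene and 3.69% of all genes. The cause of these differences was not tested.

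With each mouse left out in turn, 11 to 15 members were called, 10 to 12 higher and 1 to 4 lower, 0 to 3 passed adjustment and 1 to 4 partner genes were called. Called were 16.2 to 22.1% of tested members there, against 5.19 to 9.14% of all genes. Lower members were 1 without WT_SE mouse 3. Adjusted calls were 3 without WT_EE mouse 1, 1 without WT_SE mouse 2 and 1 without WT_SE mouse 5. Partner genes were 1 without WT_SE mouse 3, 1 without WT_SE mouse 5 and 1 without WT_EE mouse 4. Mice with the same number are different animals, and their deviations correlated by -0.018, 0.028, 0.158 and 0.174, so the numbers were not taken to pair them. With the mouse number as a block, 12 members were called (17.6%, against 6.71% of all genes), 3 passed adjustment, and 1 partner gene was called.

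Of the 17 uncalled members among the 32 named ones, 11 changed sign in some alternative, each time uncalled. With the library-name ending, Dnaja2 was 0.024, Dnajb4 -0.010, Dnajc1 0.083 and Hspd1 0.0031. With the smooth muscle mean, Bag1 was -0.105, Hspe1 0.0068 and Hsp90aa1 -0.045. Bag1 was -0.081 with Slc10a2 and -0.0138 with the block. With only L2 libraries, Dnaja2 was 0.036, Dnajc1 0.093 and Hspd1 0.016. With the library total, Dnajb6 was 0.019, Dnajc1 0.093, Hsf1 -0.012 and Hspa9 0.022. With 1 mouse left out, Dnaja2 ranged from -0.047 to 0.0059, Dnajc1 from -0.136 to 0.083, Hsf2 from -0.053 to 0.75 and Bag1 from -0.0095 to 0.127.

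Libraries of 295535 to 454043 counts leave members near 3 counts, such as Hspb7 and Dnajc12, with wide intervals.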
